A study of Mus musculus with 16 samples.

Results

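The IL-36 genes are a small branch of the interleukin-1 family: the agonists IL-36 alpha (Il1f6), IL-36 beta (Il1f8) and IL-36 gamma (Il1f9), the receptor antagonist Il1f5, and the receptor chain Il1rl2. They were chosen by name, as the rows of the count table that carry these symbols, and are 5 of the 26357 genes in that table. All 5 passed the filter on low counts that left 14671 genes for testing. Total RNA was sequenced from 16 mouse samples in a study whose title concerns a psoriasis-like dermatitis driven by IL-23 in mice. The groups were IL-23 with an oral (per os) drug vehicle, IL-23 with an intraperitoneal drug vehicle, vehicle with the oral drug vehicle, and vehicle with the intraperitoneal drug vehicle, with n = 4 libraries each. In all 4 groups the drug vehicle held 0 mpk of compound, so every animal had been dosed without a drug. The labels give neither the strain, age or tissue of the mice nor the day of harvest.

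An IL-36 agonist binds Il1rl2, which then recruits the co-receptor Il1rap and signals through the adaptor Myd88 to NF-kB and the MAP kinases. The antagonist occupies Il1rl2 without recruiting Il1rap. The cytokines are made mainly by keratinocytes and other epithelial cells, and in human skin the loss of the antagonist gene causes a pustular form of psoriasis.

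Total counts ran from 6381990 to 10078531 in the 8 IL-23 libraries and from 7159325 to 14432930 in the 8 vehicle libraries. Each library is named here by the number that opens its title. Keratinocyte markers were abundant in every library, with 15 marker genes summing to between 26852 and 38650 CPM (reads of a gene scaled to a common library size with TMM factors) in IL-23 libraries and between 24119 and 30560 CPM in vehicle libraries. Of these 15 markers, 7 were called higher and 6 lower with IL-23, beside 34.9% called higher and 38.7% lower over all genes tested. Their median log2 fold change was 0.018 against -0.043 over all genes tested. Their mean log2 CPM differed in the opposite direction from their sum, lying between 9.13 and 9.38 in IL-23 libraries and between 9.35 and 9.60 in vehicle libraries, and both pairs of ranges overlapped. Skeletal muscle markers summed to between 1715 and 3307 CPM in IL-23 libraries, against 3805 to 8022 CPM in vehicle libraries. All 12 muscle markers and all 10 adipocyte markers were called lower, beside 38.7% of all genes tested, and no marker gene of any list was at 0 in all libraries. IL-23 intraperitoneal library 28 stood apart from the rest on the second principal component (7.41% of the variance), at -62.5 where the other 15 libraries lay between -14.1 and 20.9. Its macrophage and monocyte markers summed to 1703 CPM, against 341 to 679 CPM in the other IL-23 libraries, and the results on the IL-36 genes, and the list counts that change, are also given without it. In bulk RNA, fewer cells of a type and less RNA per cell cannot be told apart. Nothing in the labels says that the libraries of a group came from separate animals, so the p-values refer to the spread among these libraries, which may be technical.

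The 4 ligand genes lie together on chromosome 2 and Il1rl2 lies on chromosome 1, all on the plus strand (RefSeq annotation of GRCm38). In order along chromosome 2, Il1f8 spans 24153172 to 24160103, Il1f9 spans 24186476 to 24193567, Il1f6 spans 24215417 to 24225701 and Il1f5 spans 24276954 to 24282432. Il1rl2 spans 40324589 to 40367555. RefSeq promoter windows of build GRCm38.p6 were at hand for 4 of the 5 genes, with 2 annotated starts for Il1f5, and not for Il1f6. The 250 bases before each start were searched on both strands for the letters of a STAT element (TTCNNNGAA), an AP-1 element (TGANTCA), a kappaB element, a C/EBP element (TTGCNNCAA) and a TATA box (TATAAA). They are shown because IL-23 acts through STAT proteins and IL-36 through NF-kB and AP-1. Capitals mark the matches, and bases in an annotated exon of the gene are left out.
Il1rl2, chr1:40324339-40324588: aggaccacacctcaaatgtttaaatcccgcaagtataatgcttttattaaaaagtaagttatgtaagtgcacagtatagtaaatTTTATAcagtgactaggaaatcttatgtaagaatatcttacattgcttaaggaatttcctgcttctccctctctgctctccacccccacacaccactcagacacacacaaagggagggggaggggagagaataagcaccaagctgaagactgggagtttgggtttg
Il1f8, chr2:24152922-24153160: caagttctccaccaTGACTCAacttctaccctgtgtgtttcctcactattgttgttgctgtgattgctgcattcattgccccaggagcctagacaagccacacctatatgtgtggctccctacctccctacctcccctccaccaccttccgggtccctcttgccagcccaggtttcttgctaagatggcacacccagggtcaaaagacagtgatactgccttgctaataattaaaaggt
Il1f9, chr2:24186226-24186475: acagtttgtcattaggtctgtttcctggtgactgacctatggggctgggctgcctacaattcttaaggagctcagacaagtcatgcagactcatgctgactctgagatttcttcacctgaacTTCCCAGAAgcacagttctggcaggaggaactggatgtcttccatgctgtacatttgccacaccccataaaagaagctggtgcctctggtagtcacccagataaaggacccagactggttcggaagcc
Il1f5, chr2:24276704-24276953: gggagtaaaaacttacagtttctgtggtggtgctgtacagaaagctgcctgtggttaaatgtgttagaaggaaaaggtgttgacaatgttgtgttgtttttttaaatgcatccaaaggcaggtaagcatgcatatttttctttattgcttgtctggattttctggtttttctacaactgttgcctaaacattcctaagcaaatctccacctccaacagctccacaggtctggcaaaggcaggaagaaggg
Il1f5, chr2:24277163-24277191: tgtgaaaccaTTCTGGGAAaccctgctcc

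The Il1rl2 stretch held 1 match, to the TATA box read on the minus strand, 166 bases before the start. The Il1f8 stretch held an AP-1 match 236 bases before the start. The Il1f9 stretch held a STAT match, TTCCCAGAA, 128 bases before the start. The first Il1f5 start had no match to any of the 5 motifs in its window. The window of the second Il1f5 start held a STAT match, TTCTGGGAA, 98 bases before that start, of which 29 bases are shown. The Il1f9 and Il1f5 matches are the same 9 letters read on opposite strands, a comparison made after they had been seen. Those letters, on either strand, were in 361 of 32851 promoter windows (1.10%). Of the same 32851 windows, 7.02% held a STAT match, 6.75% an AP-1 match, 7.25% a kappaB match, 1.74% a C/EBP match and 12.4% a TATA box. These matches describe letters in these windows only.

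The agonist Il1f6 showed the largest increase of the IL-36 genes. It was present at a low level in vehicle libraries and far higher with IL-23. After oral dosing it measured 208, 195, 195 and 182 CPM in IL-23 libraries 14, 24, 26 and 68, against 9.37, 10.6, 9.72 and 5.67 CPM in vehicle libraries 4, 27, 33 and 51. After intraperitoneal dosing it measured 343, 132, 183 and 231 CPM in IL-23 libraries 25, 28, 31 and 61, against 8.56, 16.3, 30.1 and 12.3 CPM in vehicle libraries 49, 50, 59 and 67. In both routes the lowest IL-23 library lay above the highest vehicle library. Such separation is only described, here and for the genes below, because its share among all genes tested was not counted. The vehicle values rest on 56 to 380 reads per library, so Il1f6 was measurable in every vehicle library. Il1f6 rose 22.0-fold in oral mice (log2 fold change 4.46 ± 0.35 SE, edgeR quasi-likelihood test, adjusted p = 3.05e-08). It rose 13.2-fold in intraperitoneal mice (3.72 ± 0.33 SE, edgeR adjusted p = 1.29e-07). Among the 14671 genes ranked by the mean increase over both routes it was number 90.

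Il1f9, an agonist abundant in human psoriatic epidermis, also rose with IL-23. In oral mice it measured 263, 260.5, 263 and 193 CPM in IL-23 libraries 14, 24, 26 and 68, against 27.7, 35.2, 37.3 and 24.4 CPM in vehicle libraries 4, 27, 33 and 51. In intraperitoneal mice it measured 377, 204, 245 and 303 CPM in IL-23 libraries 25, 28, 31 and 61, against 29.0, 55.8, 63.9 and 34.8 CPM in vehicle libraries 49, 50, 59 and 67. The groups did not overlap in either route. The increase was 7.85-fold in oral mice (log2 fold change 2.97 ± 0.24 SE, edgeR adjusted p = 4.70e-08) and 6.17-fold in intraperitoneal mice (2.62 ± 0.24 SE, edgeR adjusted p = 1.66e-07).

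Il1f8 was the agonist with the fewest reads in IL-23 libraries and rose least of the 3. In oral mice it measured 56.1, 52.6, 56.5 and 42.8 CPM in IL-23 libraries 14, 24, 26 and 68, against 11.6, 16.2, 13.5 and 9.22 CPM in vehicle libraries 4, 27, 33 and 51. In intraperitoneal mice it measured 83.6, 41.0, 56.2 and 65.1 CPM in IL-23 libraries 25, 28, 31 and 61, against 13.4, 24.0, 20.9 and 16.5 CPM in vehicle libraries 49, 50, 59 and 67. Again no IL-23 library fell within the vehicle range. The increase was 4.12-fold in oral mice (log2 fold change 2.04 ± 0.22 SE, edgeR adjusted p = 6.43e-07) and 3.30-fold in intraperitoneal mice (1.72 ± 0.21 SE, edgeR adjusted p = 3.40e-06).

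The antagonist gene Il1f5 rose alongside the agonists. In oral mice it measured 304, 287, 287 and 290.3 CPM in IL-23 libraries 14, 24, 26 and 68, against 62.4, 72.4, 72.3 and 55.4 CPM in vehicle libraries 4, 27, 33 and 51. In intraperitoneal mice it measured 507, 184, 303 and 364 CPM in IL-23 libraries 25, 28, 31 and 61, against 71.8, 92.7, 118 and 89.0 CPM in vehicle libraries 49, 50, 59 and 67. The groups did not overlap, but the spread differed between routes: the coefficient of variation was 2.75% in IL-23 oral libraries and 39.6% in IL-23 intraperitoneal libraries. The increase was 4.45-fold in oral mice (log2 fold change 2.15 ± 0.22 SE, edgeR adjusted p = 4.56e-07) and 3.65-fold in intraperitoneal mice (1.87 ± 0.22 SE, edgeR adjusted p = 2.15e-06).

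The receptor gene Il1rl2 moved much less than its ligands. In oral mice it measured 52.0, 50.2, 43.1 and 36.2 CPM in IL-23 libraries 14, 24, 26 and 68, against 31.5, 38.1, 38.2 and 34.1 CPM in vehicle libraries 4, 27, 33 and 51. The oral groups overlapped, because IL-23 library 68 lay within the vehicle range. In intraperitoneal mice it measured 58.6, 58.1, 47.7 and 54.7 CPM in IL-23 libraries 25, 28, 31 and 61, against 35.6, 40.6, 47.6 and 46.9 CPM in vehicle libraries 49, 50, 59 and 67. There the groups did not overlap, by a margin of 47.7 CPM in IL-23 library 31 against 47.6 CPM in vehicle library 59. The edgeR fit gave 1.28-fold in both routes (log2 fold change 0.35 ± 0.12 SE, adjusted p = 0.0178, in oral mice, and 0.36 ± 0.12 SE, adjusted p = 0.0150, in intraperitoneal mice).

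Unlike the ligand calls, the Il1rl2 call depended on how libraries were scaled. With library size alone and no TMM factors, its log2 fold change was 0.16 in oral mice (edgeR adjusted p = 0.274) and 0.14 in intraperitoneal mice (edgeR adjusted p = 0.315). Relative to the summed counts of the keratinocyte markers it was 0.036 in oral mice (edgeR adjusted p = 0.862) and 0.059 in intraperitoneal mice (edgeR adjusted p = 0.780). Relative to the mean log2 level of the same markers, a scaling added after seeing the data, it was instead called at 0.57 in oral mice (edgeR adjusted p = 0.00226) and at 0.51 in intraperitoneal mice (edgeR adjusted p = 0.00525). With upper-quartile factors it was 0.28 in oral mice (edgeR adjusted p = 0.0504) and 0.26 in intraperitoneal mice (edgeR adjusted p = 0.0669). As the mean of both routes, the median of all genes moved by -0.21 with library size alone, by -0.31 relative to the summed markers and by 0.18 relative to their mean log2 level. The share of calls that were higher was 31.9% with library size alone, 24.4% relative to the summed markers and 61.2% relative to their mean log2 level, against 47.4% with TMM factors. The oral call was also lost without IL-23 library 14 (0.28, edgeR adjusted p = 0.0636), without IL-23 library 24 (0.30, edgeR adjusted p = 0.0573) or without vehicle library 4 (0.30, edgeR adjusted p = 0.0576). The intraperitoneal call was lost without vehicle library 49 (0.28, edgeR adjusted p = 0.0594).

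**Figure D1:**
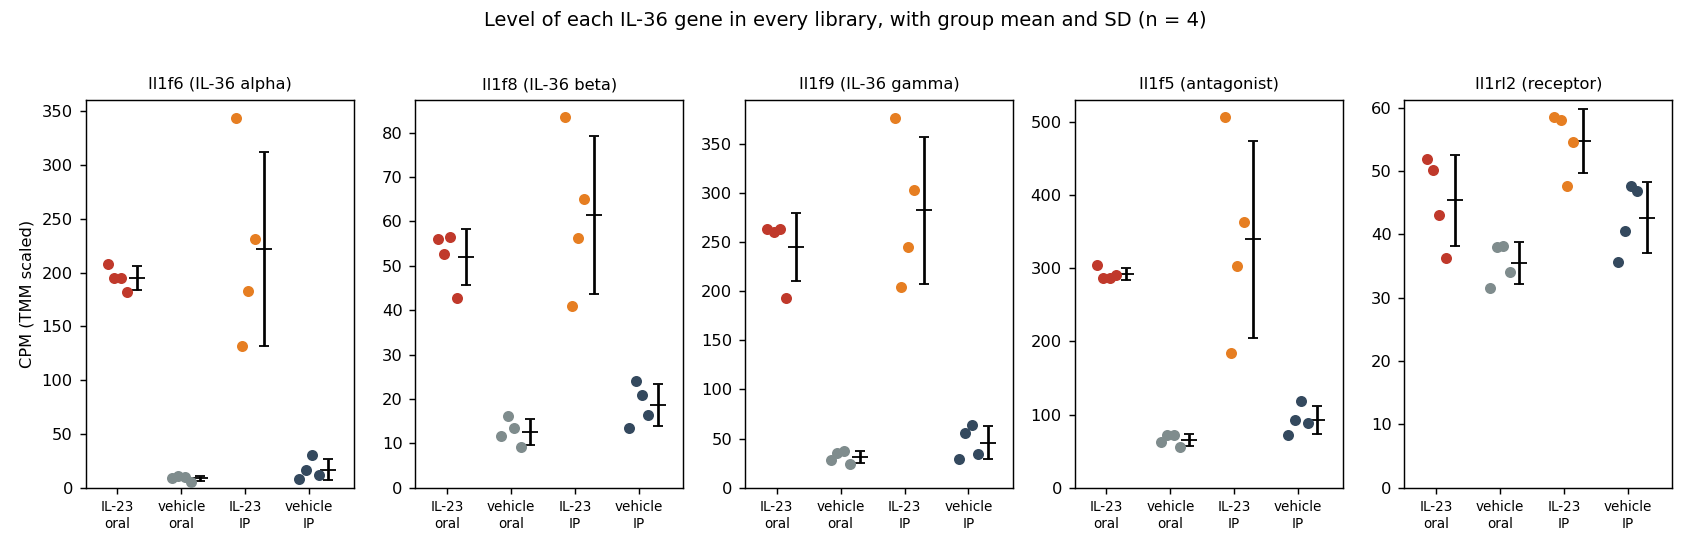
Level of each IL-36 gene in CPM (linear axes from 0, TMM scaled) in every library, with IL-23 left of vehicle in each route. Points are libraries, and the bar beside them is the group mean ± SD (n = 4). Il1f6 averaged 195 ± 10.8 CPM in IL-23 oral libraries and 8.84 ± 2.17 CPM in vehicle oral libraries, while for Il1rl2 the oral groups overlap.

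All 5 genes were thus called higher in each route, beside 29.2% of all genes tested in oral mice and 30.8% in intraperitoneal mice. In either direction, edgeR called 9280 of 14671 genes in oral mice and 9056 in intraperitoneal mice. As the mean of both routes, the log2 fold change was 4.09 ± 0.24 SE for Il1f6, 2.80 ± 0.17 SE for Il1f9, 2.01 ± 0.16 SE for Il1f5, 1.88 ± 0.15 SE for Il1f8 and 0.36 ± 0.08 SE for Il1rl2, beside a median of -0.043 over all genes tested. On that mean, 34.9% of genes tested were called higher. A larger increase than that of Il1f6 was fitted for 0.607% of all genes tested, and a larger one than that of Il1rl2 for 27.3%. Without library 28 the intraperitoneal log2 fold changes were 3.92 for Il1f6, 2.77 for Il1f9, 2.09 for Il1f5, 1.90 for Il1f8 and 0.35 for Il1rl2, and edgeR called each of them. Across all the scalings, filters, tools and left-out libraries tried, edgeR, DESeq2 and limma-voom called the 4 ligand genes higher in both routes.

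**Figure D2:**
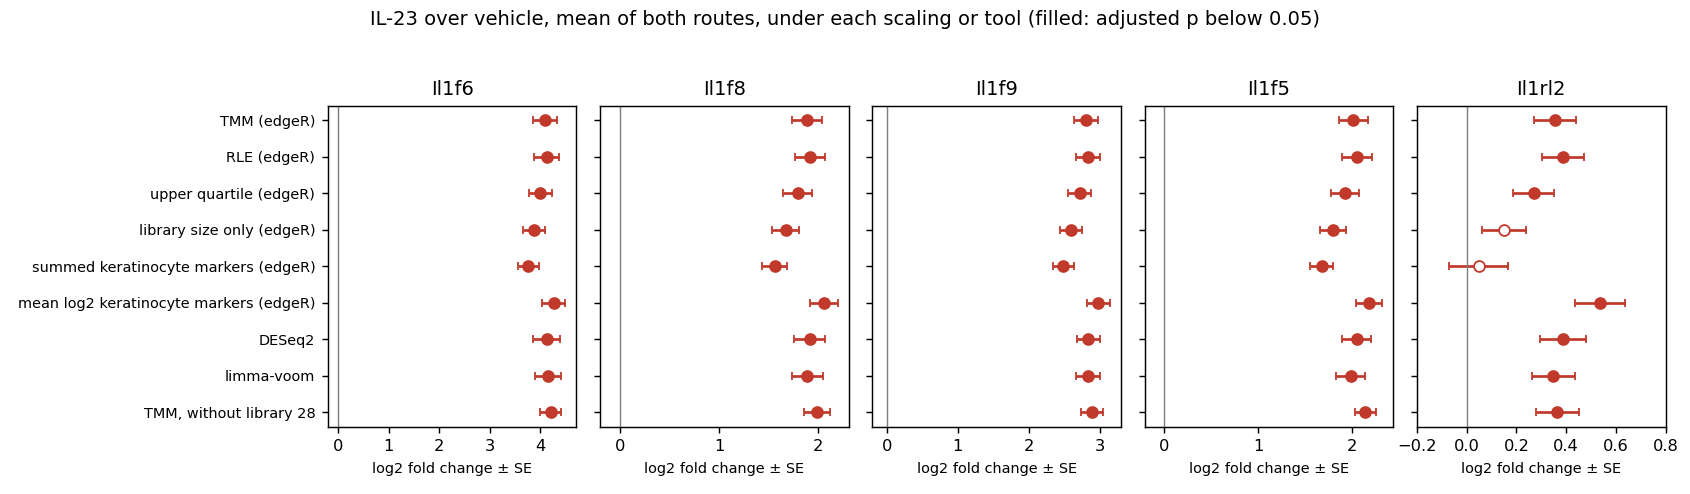
Log2 fold change ± SE of IL-23 over vehicle, as the mean of both routes, for each IL-36 gene (panels) under each scaling or tool (rows); the horizontal axes differ between panels. Filled points have an adjusted p below 0.05. The 4 ligand genes stay filled in every row, while Il1rl2 is open with library size alone (0.15) and relative to the summed keratinocyte markers (0.048).

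Ratios between the genes within a library do not depend on scaling between libraries, and they showed that the ligands did not rise in step. There were 0.605 to 0.715 Il1f6 reads per Il1f5 read in the 8 IL-23 libraries (median 0.678), against 0.102 to 0.255 in the 8 vehicle libraries (median 0.142). The ratio of this agonist to the antagonist was 4.47-fold higher with IL-23, a log2 difference of 2.16 (2.33 in oral mice and 1.99 in intraperitoneal mice). Il1f9 reads per Il1f5 read ranged from 0.663 to 1.11 in IL-23 libraries and from 0.391 to 0.602 in vehicle libraries, a 1.79-fold difference. Il1f6 reads per Il1f9 read ranged from 0.646 to 0.944 in IL-23 libraries and from 0.232 to 0.471 in vehicle libraries, a 2.50-fold difference. Il1f9 reads per Il1rl2 read ranged from 3.51 to 6.42 in IL-23 libraries and from 0.715 to 1.37 in vehicle libraries, a 5.52-fold difference. For these 4 ratios no IL-23 library overlapped a vehicle library. The 2-sided exact permutation p over both routes was 0.000408 for each, the smallest that 4900 arrangements can give, and 0.00153 after Benjamini-Hochberg adjustment over the 15 tests made. Within each route the exact p was 0.0286, the smallest that 70 arrangements can give, and 0.0357 after adjustment.

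Il1f8 and Il1f5, by contrast, kept overlapping ratios. There were 0.147 to 0.223 Il1f8 reads per Il1f5 read in IL-23 libraries, against 0.166 to 0.259 in vehicle libraries. The log2 difference was -0.10 over both routes (exact permutation p = 0.322, adjusted p = 0.371), which was within the spread between libraries. Without library 28, the Il1f9 to Il1f5 ratio in intraperitoneal mice still did not overlap, at 0.742 to 0.832 in the 3 IL-23 libraries and 0.391 to 0.602 in the 4 vehicle libraries. Its log2 difference was then 0.74 against 0.86 with library 28. Its exact permutation p was 0.0571 (adjusted p = 0.0714), where the smallest that 35 arrangements can give is 0.0286.

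**Figure D3:**
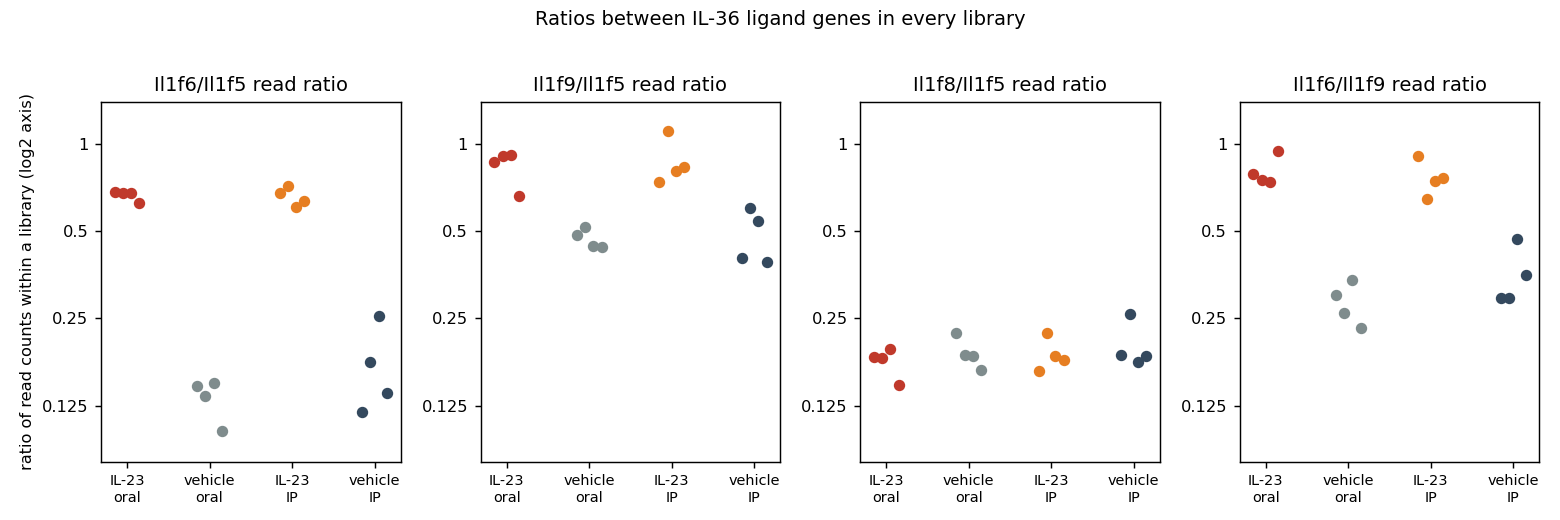
Ratio of read counts between IL-36 genes within each library, on a log2 axis, with IL-23 left of vehicle in each route (points are libraries, n = 4 a group). Il1f6 per Il1f5 read lies between 0.605 and 0.715 in IL-23 libraries and between 0.102 and 0.255 in vehicle libraries, while Il1f8 per Il1f5 read overlaps.

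To set the genes beside each other, CPM were divided by exon length in kilobases (GENCODE M21, GRCm38). These lengths were 883 bases for Il1f6, 1217 for Il1f8, 1648 for Il1f9, 4493 for Il1f5 and 6812 for Il1rl2. In IL-23 libraries the order of mean level was Il1f6, Il1f9, Il1f5, Il1f8 and Il1rl2 in both routes. In IL-23 oral libraries the level of Il1f6 was 221 ± 12.3 CPM per kb, that of Il1f9 was 149 ± 21.2 CPM per kb, that of Il1f5 was 65.0 ± 1.79 CPM per kb, that of Il1f8 was 42.7 ± 5.24 CPM per kb and that of Il1rl2 was 6.66 ± 1.06 CPM per kb (SD, n = 4). No neighbours in this order overlapped among the oral libraries. Among the IL-23 intraperitoneal libraries the Il1f6 and Il1f9, and the Il1f5 and Il1f8, ranges overlapped. Within each of these libraries, though, Il1f6 was above Il1f9 and Il1f5 above Il1f8. In vehicle oral libraries Il1f9 led with 18.9 ± 3.69 CPM per kb, before Il1f5 with 14.6 ± 1.84, Il1f8 with 10.4 ± 2.42, Il1f6 with 10.01 ± 2.46 and Il1rl2 with 5.21 ± 0.48 CPM per kb (SD, n = 4). Here the ranges of neighbours overlapped except those of Il1f6 and Il1rl2. Within each vehicle oral library Il1f9 was above Il1f5 and Il1f5 above Il1f8, while the order of Il1f8 and Il1f6 differed between libraries. In vehicle intraperitoneal libraries Il1f9 again led, with 27.8 ± 10.1 CPM per kb, and Il1f6 and Il1f8 overlapped at 19.1 ± 10.7 and 15.4 ± 3.86 CPM per kb. The place of Il1f5 rests on its length: with exons of protein-coding transcripts only (2945 bases, a choice made after seeing the data) its level was 22.3 CPM per kb in vehicle oral libraries and 31.5 CPM per kb in vehicle intraperitoneal libraries, ahead of Il1f9.

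Of the agonist transcripts per length, Il1f6 made up 48.6% to 57.5% in IL-23 libraries (median 52.4%), against 22.3% to 37.9% in vehicle libraries (median 25.7%). Il1f9 made up 32.7% to 40.4% in IL-23 libraries, against 43.0% to 51.4% in vehicle libraries. Il1f8 made up 9.83% to 11.5% in IL-23 libraries, against 19.1% to 28.7% in vehicle libraries. For each agonist the IL-23 and vehicle ranges were separate, with Il1f6 the largest component in every IL-23 library and Il1f9 in every vehicle library. The antagonist Il1f5 was 11.8% to 15.3% of the 4 ligand transcripts per length in IL-23 libraries (median 13.6%), against 22.3% to 29.97% in vehicle libraries (median 26.9%). With protein-coding exon lengths its mean share was 19.4% in IL-23 libraries and 35.5% in vehicle libraries. So transcripts of both agonist and antagonist rose, and the antagonist held a smaller share of them in every IL-23 library than in any vehicle library.

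**Figure D4:**
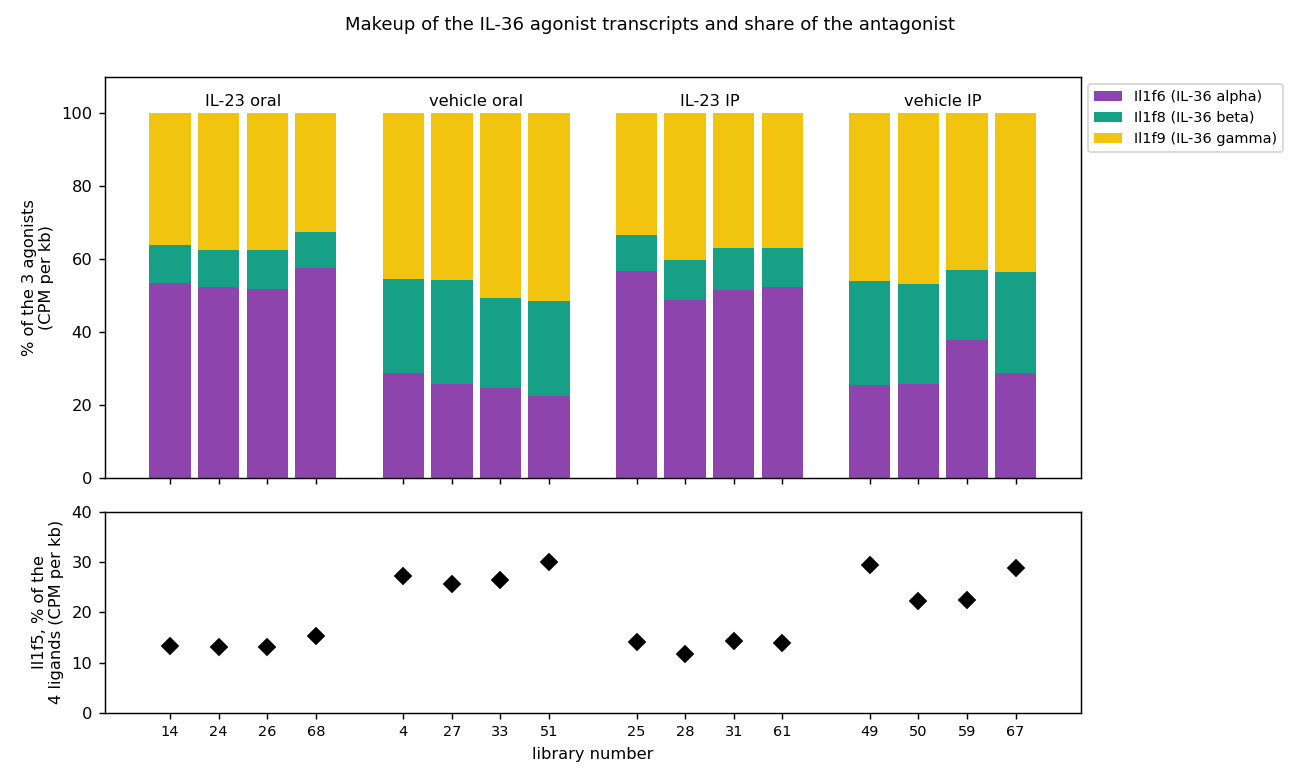
Upper panel: share of each agonist in the summed CPM per kb of Il1f6, Il1f8 and Il1f9 (stacked bars, percent) in each library. Lower panel: Il1f5 as a percentage of the summed CPM per kb of the 4 ligands (diamonds). IL-23 libraries stand left of vehicle libraries in each route, and the Il1f6 share runs from 48.6% to 57.5% in IL-23 libraries and from 22.3% to 37.9% in vehicle libraries.

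The route of the drug vehicle gave no called difference for the IL-36 genes. The log2 IL-23 effect in intraperitoneal mice minus that in oral mice was -0.74 ± 0.45 SE for Il1f6 (95% interval -1.63 to 0.15, edgeR adjusted p = 0.875), and 0.0096 ± 0.17 SE for Il1rl2 (95% interval -0.32 to 0.34, edgeR adjusted p = 0.996). For Il1f8, Il1f9 and Il1f5 the difference lay between -0.35 and -0.28. Over all genes, edgeR called 0 genes for this difference (percent called 0, with 796 at an unadjusted p under 0.05), limma-voom 0 and DESeq2 1. In vehicle mice all 5 genes were at a higher mean level after intraperitoneal than after oral dosing, from a log2 difference of 0.26 ± 0.12 SE for Il1rl2 to 0.92 ± 0.35 SE for Il1f6. None passed the adjusted threshold (edgeR adjusted p = 0.611 for Il1f6 and 0.660 for Il1rl2), although all 5 had an unadjusted p under 0.05. There, edgeR called 0 genes in all (1087 at an unadjusted p under 0.05), limma-voom 0 and DESeq2 1, and the intraperitoneal and oral vehicle ranges overlapped for each IL-36 gene. In IL-23 mice the route differences were 0.19 ± 0.29 SE for Il1f6 and 0.27 ± 0.12 SE for Il1rl2 (edgeR adjusted p = 0.825 and 0.356). There edgeR called 0 genes (1874 at an unadjusted p under 0.05), limma-voom 0 and DESeq2 57.

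Within a group, the ligand genes tended to be high or low in the same library, but less so among IL-23 oral libraries. There library 68 was lowest for Il1f6, Il1f8 and Il1f9, and library 24 for Il1f5. The highest was library 14 for Il1f6 and Il1f5 and library 26 for Il1f8 and Il1f9. Among vehicle oral libraries, number 51 was lowest for the 4 ligand genes. IL-23 intraperitoneal library 25 was highest of its group for all 5 genes. Library 28 was lowest of that group for the 4 ligand genes but not for Il1rl2, at 58.1 CPM. The keratinocyte markers summed to 38650 CPM in library 25 and 26852 CPM in library 28, the highest and lowest of all IL-23 libraries, and their part in these levels was not tested. Among vehicle intraperitoneal libraries, number 49 was lowest for all 5 genes, and number 59 was highest for all but Il1f8. The highest value was 2.75 times the lowest for Il1f5 among IL-23 intraperitoneal libraries and 3.52 times the lowest for Il1f6 among vehicle intraperitoneal libraries.

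The genes most like each IL-36 gene were taken as those with the smallest root-mean-square difference in centred log2 CPM over the 16 libraries. The search covered the 14352 tested genes that averaged 1 CPM or more. This difference includes the IL-23 effect, so genes with a like fold change come out close. Likeness beyond that shared change was not tested. Closest to Il1f6 was Slc5a1, a sodium-glucose cotransporter (difference 0.22), at 422 ± 98.4 CPM in IL-23 libraries and 22.9 ± 8.18 CPM in vehicle libraries (SD, n = 8 each), then Teddm3 and the late cornified envelope gene Lce3c, whose family members can share reads. Closest to Il1f9 was Ehf, an epithelial ETS-family transcription factor (difference 0.15), at 464 ± 69.4 CPM in IL-23 libraries and 61.1 ± 22.7 CPM in vehicle libraries (SD, n = 8 each), then Endou and Tmem229b. Closest to Il1f8 were the chitinase Chit1, the epidermal dehydrogenase Sdr9c7 and the barrier lipoxygenase Alox12b (0.16 to 0.18). Closest to Il1f5 were Lypd5, Sdr9c7 again, and the nucleoside transporter Slc28a3 (0.13 to 0.14). Closest to Il1rl2 were the G protein subunit Gnai3, the E2F partner Tfdp1 and the bromodomain gene Brwd3 (0.12 to 0.13). Among the IL-36 genes themselves, Il1f8 and Il1f5 were nearest, at 0.18, and Il1f5 was the fourth closest of all genes to Il1f8. Il1f6 and Il1f9 were 0.69 apart, and Il1f6 and Il1rl2 1.94 apart.

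Neighbouring genes on chromosome 2 did not all move with the IL-36 cluster. RefSeq lists 15 genes within 250 kb of the 4 ligand genes, the 4 included, of which 10 were in the count table and 8 were tested. Of these 8, 6 rose and 2 fell, beside 34.9% called higher and 38.7% called lower over all genes tested. The 6 that rose include the 4 ligand genes themselves. Of the other tested genes, Il1rn and Psd4 rose, and Il1f10 and Hnmt fell. Il1f10, which encodes IL-38 and starts 14.2 kb past the start of Il1f5, was lower with IL-23, at 4.30 ± 1.66 CPM in IL-23 libraries and 6.81 ± 1.62 CPM in vehicle libraries (SD, n = 8 each; log2 fold change -0.67 ± 0.19 SE, edgeR adjusted p = 0.00486). Its call held in intraperitoneal mice (edgeR adjusted p = 0.0304) and missed the threshold in oral mice (edgeR adjusted p = 0.0557). Il1rn, the antagonist of the IL-1 receptor, starts 59.9 kb away and averaged 255 CPM in IL-23 libraries and 71.6 CPM in vehicle libraries (log2 fold change 1.84 ± 0.12 SE, edgeR adjusted p = 1.13e-09). Beyond it, Psd4, an exchange factor for ARF6, rose by 0.29 ± 0.06 SE on the log2 scale (edgeR adjusted p = 0.000266), with library size alone 0.085 and not called, and -0.023 relative to the summed keratinocyte markers. On the far side of Il1f8, the histamine-degrading enzyme gene Hnmt fell by 0.98 on the log2 scale (edgeR adjusted p = 3.84e-06). Tbpl2 and Pax8 had 9 and 23 reads in all libraries together and were not tested.

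**Figure D5:**
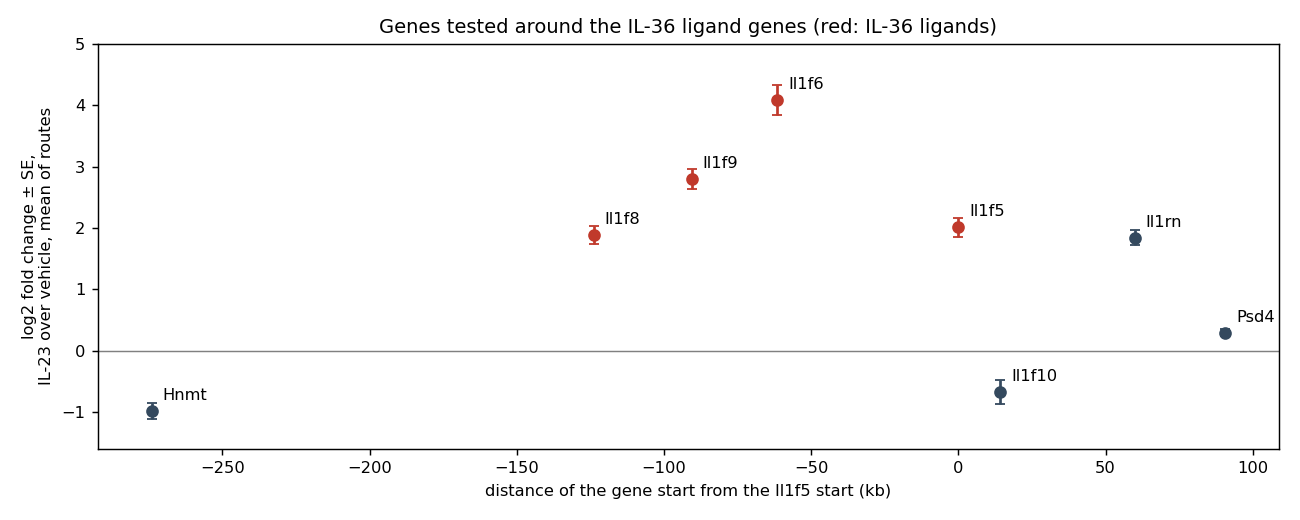
Log2 fold change ± SE of IL-23 over vehicle, as the mean of both routes, for the 8 tested genes around the IL-36 ligand genes, against the distance of each gene start from the Il1f5 start in kb (red, the 4 IL-36 ligand genes; blue, other genes). Il1f10, 14.2 kb from Il1f5, lies at -0.67 and Il1rn, 59.9 kb from it, at 1.84.

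Of the IL-36 receptor pathway, the components moved unevenly. Among 24 genes of receptor signalling, 16 rose, 4 fell and 4 were not called, with a median log2 fold change of 0.25 against -0.043 over all genes tested, of which 34.9% were called higher and 38.7% lower. Without library 28, 18 rose, 4 fell and 2 were not called. The median is of the size by which the scalings above move the median of all genes. The co-receptor Il1rap averaged 42.9 ± 6.97 CPM in IL-23 libraries and 36.4 ± 4.25 CPM in vehicle libraries (SD, n = 8 each; log2 fold change 0.24 ± 0.09 SE, edgeR adjusted p = 0.0288). It was called in oral mice (edgeR adjusted p = 0.0371) and not in intraperitoneal mice (edgeR adjusted p = 0.346), a difference that was itself not called (edgeR adjusted p = 0.911). The Il1rap call was lost with upper-quartile factors or library size alone, and without any 1 of 5 single libraries (IL-23 26 and 61, and vehicle 4, 27 and 59), with values of 0.18 to 0.29 over all libraries left out in turn. Relative to the summed keratinocyte markers its value was -0.070. The inhibitory receptor Sigirr was not called (0.15 ± 0.13 SE, edgeR adjusted p = 0.310), and was called at 0.26 without library 28 and at 0.33 relative to the mean log2 level of the keratinocyte markers.

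Downstream, the adaptor Myd88 averaged 122 ± 14.3 CPM in IL-23 libraries and 44.0 ± 3.63 CPM in vehicle libraries (SD, n = 8 each; log2 fold change 1.48 ± 0.08 SE, edgeR adjusted p = 6.42e-11). Nfkbiz, which encodes the NF-kB cofactor IkB-zeta and is induced by IL-17 as well as IL-36, averaged 175 ± 25.0 CPM in IL-23 libraries and 39.0 ± 5.66 CPM in vehicle libraries (log2 fold change 2.17 ± 0.09 SE). The NF-kB inhibitor gene Nfkbia averaged 291 ± 45.0 CPM in IL-23 libraries and 97.2 ± 13.8 CPM in vehicle libraries (1.58 ± 0.10 SE). These 3 genes had the largest increases of the list, and for each of them every IL-23 library was above every vehicle library. How many of all genes tested separate in that way was not counted. Among the genes that fell, the kinase gene Irak1 averaged 96.6 CPM in IL-23 libraries and 130.1 CPM in vehicle libraries (-0.43 ± 0.04 SE), and the kinase gene Mapk9 averaged 48.4 CPM in IL-23 libraries and 57.4 CPM in vehicle libraries (-0.25 ± 0.06 SE), a call lost relative to the mean log2 level of the keratinocyte markers (-0.061). Ikbkg, the regulatory subunit of the IkB kinase, fell as well, to 49.5 CPM in IL-23 libraries, against 69.0 CPM in vehicle libraries.

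Proteases cleave the IL-36 precursors into their active forms, and in human studies neutrophil elastase, proteinase 3, cathepsin G and cathepsin S have been named. Of 9 listed proteases and inhibitors, 4 passed the filter and all 4 rose, beside 34.9% of all genes tested. Without library 28, 5 passed, of which 4 rose and 1 fell. The antiprotease gene Slpi averaged 136 ± 38.8 CPM in IL-23 libraries and 8.28 ± 2.82 CPM in vehicle libraries (SD, n = 8 each; log2 fold change 4.03 ± 0.23 SE, edgeR adjusted p = 1.66e-10). Serpinb1a, an inhibitor of neutrophil serine proteases, averaged 64.7 CPM in IL-23 libraries and 25.4 CPM in vehicle libraries (1.35 ± 0.09 SE). Cathepsin S, Ctss, averaged 176 ± 167 CPM in IL-23 libraries and 68.4 ± 17.1 CPM in vehicle libraries, with 585 CPM in library 28, and its log2 fold change was 1.32 with that library and 0.81 without it. Transcripts of the neutrophil serine proteases were near the floor: Elane had 0 reads in the 8 IL-23 libraries and 5 in the 8 vehicle libraries, Prtn3 had 17 reads in IL-23 libraries and 19 in vehicle libraries, and Ctsg had 24 reads in IL-23 libraries and 109 in vehicle libraries. In a fit without the filter on low counts, Ctsg was called lower (log2 fold change -1.80 ± 0.51 SE, edgeR adjusted p = 0.00479), with -2.68 in intraperitoneal mice (edgeR adjusted p = 0.00878) and -0.92 in oral mice (edgeR adjusted p = 0.257). Of 10 neutrophil markers 9 were tested and all 9 were called higher, beside 34.9% of all genes tested. The 10 summed to between 19891 and 30459 CPM in IL-23 libraries and between 29.4 and 129 CPM in vehicle libraries. Nearly all of that sum is S100a8 and S100a9, which activated keratinocytes also express. The other 8 markers together summed to between 52.8 and 164 CPM in IL-23 libraries and between 5.03 and 23.3 CPM in vehicle libraries. Markers this low in vehicle libraries may have passed the filter on low counts through the IL-23 libraries, which favours calls of higher.

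Of 18 genes that IL-36 induces in keratinocytes or myeloid cells, 17 were tested and all 17 rose, beside 34.9% of all genes tested. Their median log2 fold change was 4.36. This list, like the others here, was chosen with earlier results of these data known, so the count is not an independent comparison. Among the 17, S100a8 and S100a9, alarmin genes that IL-17 also induces, had log2 fold changes of 8.59 and 8.46. The neutrophil chemokine gene Cxcl5 had 6.14 ± 0.81 SE. It averaged 19.5 ± 26.7 CPM in IL-23 libraries and 0.238 ± 0.216 CPM in vehicle libraries (SD, n = 8 each). Its vehicle values ran from 0 to 0.588 CPM, so it passed the filter on low counts through the IL-23 libraries (4.71 to 82.0 CPM). Over left-out libraries its log2 fold change ran from 5.28 to 6.96. The list overlaps the genes induced by IL-17 and the neutrophil markers, and the part of IL-36 in their increase was not tested. Of 14 other ligands and receptors of the IL-1 family, 12 were tested, 7 rose, 2 fell and 3 were not called, beside 34.9% called higher and 38.7% lower over all genes tested. Their median was 0.77, and 0.30 without library 28. Il18rap, among those that rose, had 0.395 to 0.952 CPM in vehicle libraries and 3.94 to 15.6 CPM in IL-23 libraries. Like Cxcl5, it passed the filter on low counts through the IL-23 libraries. How many other genes of these lists passed in that way was not counted. Il1b, the main inflammatory IL-1 ligand, averaged 198 ± 107 CPM in IL-23 libraries and 18.0 ± 13.8 CPM in vehicle libraries (log2 fold change 3.63 ± 0.42 SE, edgeR adjusted p = 5.89e-07). The keratinocyte alarmin Il1a averaged 54.8 ± 14.9 CPM in IL-23 libraries and 13.4 ± 4.17 CPM in vehicle libraries (2.07 ± 0.17 SE), and Il18 averaged 28.0 ± 6.58 CPM in IL-23 libraries and 44.6 ± 6.56 CPM in vehicle libraries (-0.67 ± 0.11 SE, edgeR adjusted p = 3.54e-05). The markers of immune cells moved beside these lists: 7 of 10 macrophage and monocyte markers, 7 of 10 dendritic and Langerhans cell markers (with 1 lower) and 6 of 11 tested T cell markers were called higher, beside 34.9% of all genes tested. Without library 28, 7 macrophage and monocyte markers were higher and 1 lower, and 5 T cell markers were higher and 1 lower. In intraperitoneal mice alone, 7 T cell markers were called higher with library 28 and 3 without it. The part of these cell types in the levels of the IL-36 genes and lists was not tested.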

How the data were processed

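The deposited values are raw counts of reads per gene: they are whole, their sums differ between libraries, and the values show no scaling by the authors. Stranded total RNA libraries (TruSeq) were sequenced on an Illumina HiSeq, per the labels' protocols. Build GRCm38, FastQC, STAR 2.52 and featureCounts of Subread 1.5.0 are named, per the submitters' processing notes. Which annotation release, strand setting and rule for multi-mapping reads were used is not given in the sources used here.

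Groups follow the agent and route in the labels, and all 16 columns were matched to a sample by title. The symbols, and the pathway and marker lists, were chosen with earlier results of these data known. The test was the quasi-likelihood test of edgeR 4.0.16 in R 4.3.3, with TMM factors, filterByExpr at a minimum count of 10 and 1 mean for each of the 4 groups. Tests were 2-sided, adjusted by Benjamini-Hochberg over the 14671 genes that passed, and "called" means an adjusted p under 0.05. The SE was taken as the size of the log2 fold change divided by the root of its F statistic, and 95% intervals are 1.96 SE to either side. The keratinocyte offset scales libraries by the summed counts of the 15 markers. Levels are CPM with TMM factors, as mean ± SD. Ratios of 2 genes were tested by exact permutation of log2 count ratios within route. Named genes are the 5 IL-36 genes, the 3 genes most like each, annotated genes within 250 kb on chromosome 2, up to 3 called genes per direction and list with the largest change, and Il1rap, Sigirr and Myd88. Elane, Prtn3 and Ctsg were named after their values were seen. Positions come from RefSeq GRCm38.p6, and exon lengths from GENCODE M21. Il1rl2 overlaps a processed pseudogene, Gm17970, on the same strand, so its reads may be shared. The scripts were tested on simulated data.

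Alternatives were RLE and upper-quartile factors, plain library size, the keratinocyte offset, no filter, a minimum of 1 CPM in 4 or more libraries, limma-voom (limma 3.58.1), DESeq2 1.42.0, only the groups compared, and leaving out each library in turn. Protein-coding exon lengths, lists counted without library 28 and an offset by the markers' mean log2 level were added after seeing the data.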

Additional observations from a re-analysis of the deposited data

Results flagged for a closer look

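In 40 groups of 4 values, the levels of the 5 IL-36 genes and the 5 ratios in each group, the most extreme library was compared with the others, and 3 stood far enough from them to pass Dixon's 95% critical value for groups of that size. Chance alone flags about 1 in 20 such groups. In IL-23 oral mice, library 68 had the lowest Il1f9 level, 193 CPM, where the other 3 libraries lay between 260.5 and 263 CPM. The same library had the lowest Il1f6 to Il1f5 read ratio of its group, 0.626, where the others lay between 0.679 and 0.685. In vehicle intraperitoneal mice, library 50 had the highest Il1f8 to Il1f5 read ratio, 0.259, where the others lay between 0.177 and 0.187.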

How the results depend on the processing

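The 4 ligand genes kept their direction and their call in both routes and in the mean under every scaling, filter, tool and left-out library tried, with mean log2 fold changes of 3.76 to 4.33 for Il1f6, 2.48 to 2.98 for Il1f9, 1.68 to 2.18 for Il1f5 and 1.56 to 2.06 for Il1f8. The Il1rl2 call did not hold throughout. With upper-quartile factors Il1rl2 was 0.28 in oral mice (edgeR adjusted p = 0.0504) and 0.26 in intraperitoneal mice (edgeR adjusted p = 0.0669), still called in the mean. With library size alone Il1rl2 was 0.16 in oral mice, 0.14 in intraperitoneal mice and 0.15 in the mean, and relative to the summed keratinocyte markers 0.036, 0.059 and 0.048. These 2 scalings also moved the median of all genes, and the cause of the lost Il1rl2 calls was not tested. Over left-out libraries Il1rl2 ran from 0.28 to 0.45 in oral mice and from 0.28 to 0.42 in intraperitoneal mice, and its difference between routes from -0.087 to 0.079. That difference, 0.0096 as reported, was -0.0093 with RLE factors, -0.020 with upper-quartile factors, -0.013 with library size alone, -0.0092 with DESeq2 and -0.063 relative to the mean log2 level of the keratinocyte markers. Over left-out libraries, the route difference in IL-23 mice ran from -0.10 to 0.36 for Il1f6 and from -0.045 to 0.41 for Il1f5. The intraperitoneal Il1f9 to Il1f5 log2 ratio difference ran from 0.74 to 0.97, and that of Il1f8 to Il1f5 from -0.18 to 0.027. DESeq2 called 1 gene for the difference between routes, 57 for route in IL-23 mice and 1 for route in vehicle mice, against 0 each by edgeR. Relative to the summed keratinocyte markers Sigirr was -0.17, Brwd3 -0.079, Il1rap -0.070 and Psd4 -0.023, and Sigirr was -0.056 with library size alone. With protein-coding exon lengths Il1f5 had 99.2 CPM per kb in IL-23 oral, 115 in IL-23 intraperitoneal, 22.3 in vehicle oral and 31.5 in vehicle intraperitoneal libraries, and its mean share of the ligands was 19.4% with IL-23 and 35.5% with vehicle, against 13.6% with IL-23 and 26.6% with vehicle over all exons. No paired analysis was possible because no number in the titles is shared by any pair of samples. Low read counts limit what can be read from Elane, Prtn3 and Ctsg.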
